A study of Mus musculus with 14 samples.

Results

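The 4 Egr genes (Egr1, Egr2, Egr3 and Egr4) and the 2 Nab genes (Nab1 and Nab2) were taken by symbol from the deposited gene matrices, 6 of 52459 gene symbols, and all 6 were measured in each of the 14 libraries and passed the filter on low counts. The series profiled primary cortical neurons of mouse embryos (E16.5) that carry 1 of 2 substitutions in BRG1, which powers BAF chromatin remodelling complexes by hydrolysing ATP, and asked how this residue bears on genes switched on by neuronal activity. All cultures received 1 µM TTX, a sodium channel blocker, and 100 µM APV, an NMDA receptor blocker, on day 5 in vitro. On day 6, KCl cultures were exposed for 1 h to KCl at 50 mM, which depolarises the neurons, and basal cultures were not. The groups were SA (BRG1 S1382A) and SE (BRG1 S1382E), each set against wild-type littermates that are called WT-SA and WT-SE here, and each had KCl and basal libraries. SA, SE and WT-SA had 2 libraries per treatment, and WT-SE had 1. SA with WT-SA is called the SA line, and SE with WT-SE the SE line. The labels do not say whether the 2 libraries of a group came from separate embryos, whether the mutants are homozygous, or whether KCl and basal libraries of a number share a culture, so p-values measure the spread between these libraries.

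Egr proteins are zinc finger transcription factors that bind GC-rich sites, and neuronal activity switches their genes on within minutes through ERK signalling, serum response factor and CREB, without new protein synthesis. Nab1 and Nab2 bind the inhibitory domain of Egr1, Egr2 and Egr3 and mostly repress their targets, Nab2 in part through the CHD4 subunit of the NuRD complex. Egr4 is described as lacking a site for Nab proteins. Egr1 and Egr3 are studied in neurons for synaptic plasticity and memory, and Egr2 is best known for hindbrain patterning and for myelination by Schwann cells.

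Libraries held 22625916 to 23096206 estimated counts, and levels are given as CPM (counts relative to library size, scaled by TMM) or, where genes are compared with each other, as TPM (corrected for transcript length). Marker lists separated the lines, and bulk RNA cannot tell fewer cells of a type from less RNA per cell. Summed markers of glutamatergic neurons lay at 2374 to 2610 CPM in the SE line and at 651 to 1131 CPM in the SA line, and those of GABAergic neurons at 168 to 255 CPM in the SE line and 488 to 667 CPM in the SA line. Pan-neuronal markers overlapped, at 5804 to 6692 CPM in the SE line and 4067 to 6910 CPM in the SA line. Astrocyte markers summed to 716 to 791 CPM in the SE line and 1811 to 2940 CPM in the SA line, progenitor markers to 288 to 368 CPM in the SE line and 1051 to 3506 CPM in the SA line, and oligodendrocyte-lineage markers to 127 to 150 CPM in the SE line and 577 to 750 CPM in the SA line. Microglial markers summed to 23.2 to 32.2 CPM in the SE line and 86 to 117 CPM in the SA line, and endothelial and mural markers to 8.15 to 10.8 CPM in the SE line and 24.2 to 76.9 CPM in the SA line. Meningeal fibroblast markers summed to 20.2 to 35.6 CPM in the SE line and 100 to 229 CPM in the SA line, and Schwann cell markers to 40.3 to 47.8 CPM in the SE line and 76.1 to 139 CPM in the SA line. No marker was at 0 in all 14 libraries. Both libraries of WT-SA replicate 1 stood apart from the rest of their line: their progenitor markers summed to 3322 and 3506 CPM, against 1051 to 2052 CPM in the other 6, and Slc17a7, the cortical vesicular glutamate transporter, was at 24.4 and 24.7 CPM, against 266 to 375 CPM. Results that change without these 2 libraries are given both ways.

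Across the family, 4 of 6 members rose after KCl in SE, 4 in WT-SE, 3 in SA and 4 in WT-SA, and none fell. Of the 17732 genes tested, 1.66% were called in SE, 0.462% in WT-SE, 0.846% in SA and 0.75% in WT-SA (higher: 1.22%, 0.451%, 0.699% and 0.649% in that order; lower: 0.446%, 0.0113%, 0.147% and 0.102%). The members' median log2 value was 6.15 in SE, 5.83 in WT-SE, 3.77 in SA and 4.07 in WT-SA, and that of all genes lay between -0.0037 and 0.0129. At the transcript level, 14 transcripts of the 6 genes were tested, and 6 were called in SE, 4 in WT-SE, 5 in SA and 4 in WT-SA. Of all 47808 transcripts tested, 0.535% were called in SE, 0.243% in WT-SE, 0.197% in SA and 0.155% in WT-SA.

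**Figure D1:**
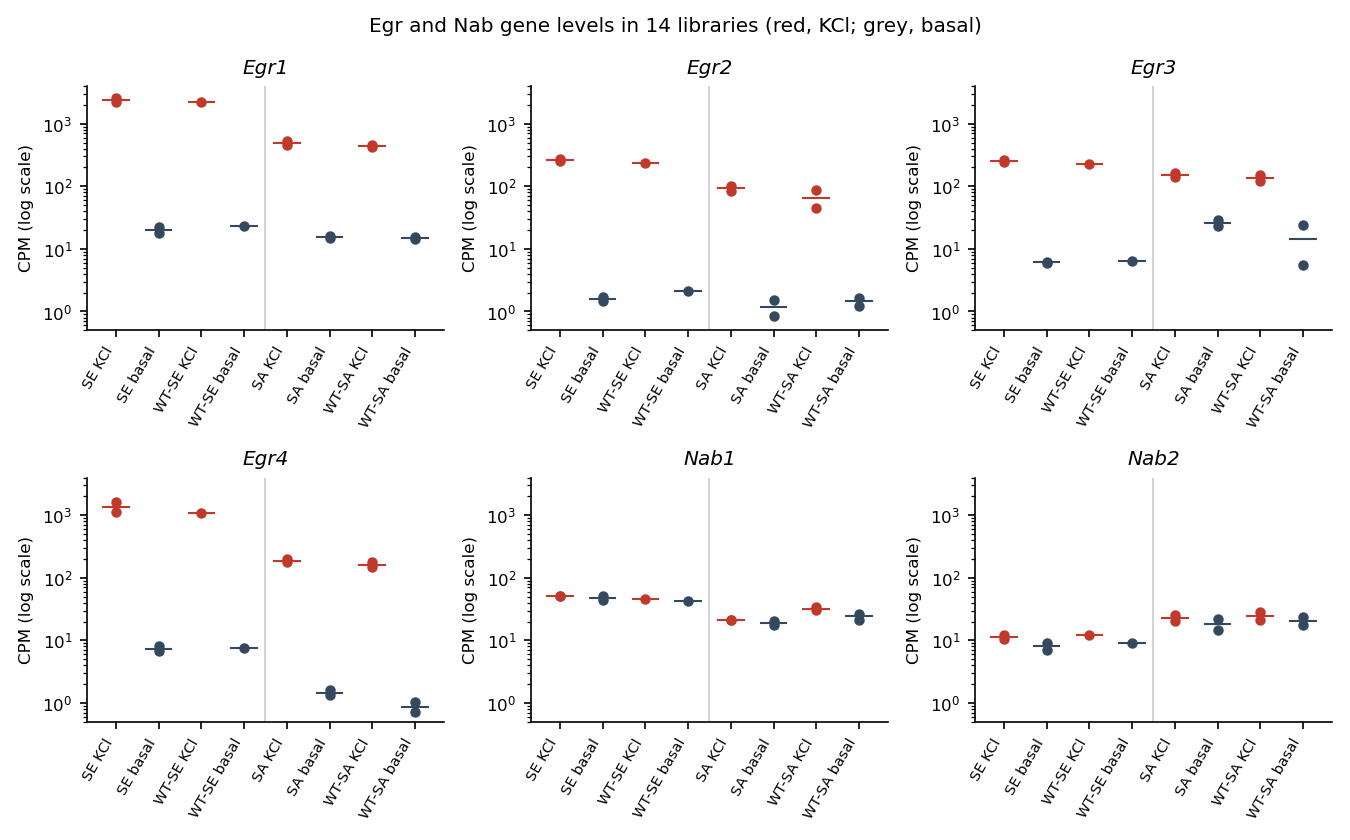
CPM of each gene (log axis) in the 8 groups, with a point per library and a line at the group mean, KCl in red and basal in grey, the SE line left of the vertical line and the SA line right of it. The 4 Egr genes lie higher after KCl in each genotype, Egr3 has 2 basal levels in the SA line, and Nab1 and Nab2 stay between 7.10 and 51.9 CPM.

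**Figure D2:**
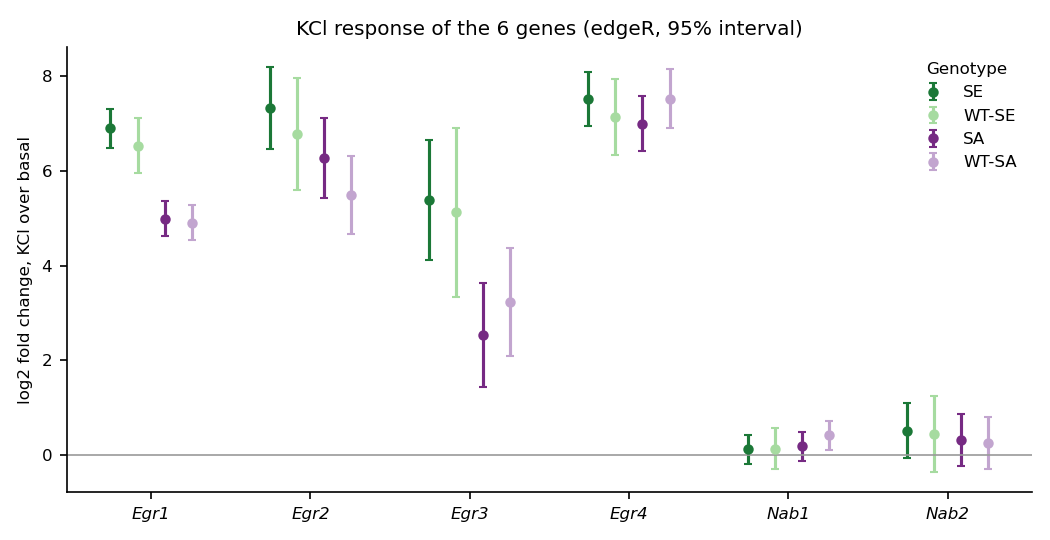
log2 fold change of KCl over basal for each gene and genotype, with the 95% interval of the edgeR fit. Egr1 lies at 6.90 and 6.54 in SE and WT-SE and at 5.00 and 4.91 in SA and WT-SA, Egr4 between 7.003 and 7.53 in all 4, and both Nab genes below 0.52.

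Egr1 (ENSMUSG00000038418.7, chromosome 18, 34859823 to 34864984, plus strand, GRCm38) held the highest level of the family after KCl in TPM. It measured 2539 and 2216 CPM in SE KCl libraries, 527 and 455 CPM in SA KCl libraries, 22.0 and 17.7 CPM in SE basal libraries, and 14.8 and 15.95 CPM in SA basal libraries. Wild-type neurons gave 2183 CPM in WT-SE KCl and 23.5 CPM in WT-SE basal, and 429 and 460 CPM in WT-SA KCl and 15.2 and 14.3 CPM in WT-SA basal. KCl and basal libraries did not overlap in any genotype. Egr1 rose by 6.90 ± 0.18 on the log2 scale in SE (edgeR quasi-likelihood test, ± SE of the fit, n = 2 per group, adjusted p = 8.0e-08), 6.54 ± 0.26 in WT-SE, 5.00 ± 0.17 in SA and 4.91 ± 0.17 in WT-SA. Both annotated coding transcripts rose in all 4 genotypes. Egr1-202, the shorter model, with the same coding length, took 85.3 to 86.8% of Egr1 TPM after KCl and 79.2 to 92.3% at basal.

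Egr2 (ENSMUSG00000037868.15, chromosome 10, 67535475 to 67542188, plus strand) was near 1 CPM at basal. It measured 268 and 252 CPM in SE KCl and 1.49 and 1.73 CPM in SE basal, and 102 and 82.8 CPM in SA KCl and 1.52 and 0.86 CPM in SA basal. WT-SE had 237 CPM after KCl and 2.15 CPM at basal, and WT-SA had 44.7 and 86.1 CPM after KCl and 1.23 and 1.66 CPM at basal. KCl and basal libraries did not overlap in SE, SA or WT-SA, and WT-SE had 1 library of each. WT-SA KCl replicate 1 held the lowest KCl level of the 7. The rise was 7.33 ± 0.38 in SE, 6.78 ± 0.53 in WT-SE, 6.28 ± 0.38 in SA and 5.49 ± 0.36 in WT-SA (log2, edgeR, adjusted p between 5.6e-06 and 2.1e-04). Basal estimates of single Egr2 transcripts rested on few reads: Egr2-201, which held 82.3 to 97.1% of Egr2 TPM after KCl, held 0 to 100% at basal.

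Egr3 (ENSMUSG00000033730.4, chromosome 14, 70077203 to 70082614, plus strand) was the member that differed most between 2 basal libraries of 1 group. SE KCl libraries had 266 and 245 CPM and SE basal libraries 6.22 and 5.92 CPM, while WT-SE had 223 CPM after KCl and 6.39 CPM at basal. SA KCl libraries had 164 and 139 CPM and SA basal libraries 29.0 and 23.0 CPM. WT-SA KCl libraries had 119 and 154 CPM, but the 2 WT-SA basal libraries differed, with 5.45 CPM in replicate 1 and 23.7 CPM in replicate 2. Every KCl library lay above every basal one, and the basal libraries lay at 2 levels, 23.0 to 29.0 CPM in both SA libraries and WT-SA replicate 2, and 5.45 to 6.39 CPM in WT-SA replicate 1 and the 3 SE-line libraries. Egr3 rose by 5.39 ± 0.57 in SE (adjusted p = 8.2e-04), by 5.12 ± 0.79 in WT-SE (adjusted p = 0.0217) and by 3.23 ± 0.51 in WT-SA (adjusted p = 0.0203), and its value in SA, 2.54 ± 0.49, missed the threshold of 0.05 (adjusted p = 0.0551, edgeR). Without WT-SA basal replicate 1 the WT-SA value was 2.53, and without WT-SA basal replicate 2 it was 4.64. With both libraries of WT-SA replicate 1 left out, the SA response was unchanged in size at 2.54 and passed the test.

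The Egr3 transcripts split this basal difference unevenly. Egr3-204 is the 2-exon coding model, and Egr3-202 is a single-exon model of 3876 bases, annotated as a retained intron, that contains the whole second exon of Egr3-204 (3655 bases), so most reads of either fit both and were divided by kallisto's model. At basal, Egr3-202 held 0.25 and 0.34 TPM in SE and 1.17 TPM in WT-SE, 4.67 and 5.42 TPM in SA, and 0.33 and 5.96 TPM in WT-SA replicates 1 and 2. Its estimated counts were 259 to 314 in the 3 libraries with high basal Egr3 and 14.7 to 69.8 in the other 4. Egr3-204 held 3.27 to 6.36 TPM in the 3 libraries with high basal Egr3 and 0.93 to 1.93 TPM in the other 4. After KCl, Egr3-204 led in each of the 7 libraries, at 64.4 to 74.9 TPM in the SE line and 38.3 to 50.3 TPM in the SA line, and Egr3-202 took 12.5 to 16.8% of Egr3 TPM. Egr3-204 rose by 5.35 ± 0.42 in SE, 6.10 ± 0.62 in WT-SE, 3.27 ± 0.38 in SA and 3.92 ± 0.39 in WT-SA (edgeR over 47808 transcripts, adjusted p between 0.0011 and 0.0181). The SA call of Egr3-204 was lost under 8 of 20 alternatives (highest adjusted p 0.157) and the WT-SA call under 2 of 20 (highest 0.104). Egr3-202 lay at log2 5.66 ± 1.08 in SE (adjusted p = 0.0902, edgeR), 3.39 ± 1.33 in WT-SE, 0.98 ± 0.85 in SA and 1.62 ± 0.87 in WT-SA. It was not called in any of the 4, but passed under 6 of 20 alternatives in SE, 3 of 18 in WT-SE and 1 of 20 in WT-SA, and the difference between the transcripts was not tested.

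**Figure D3:**
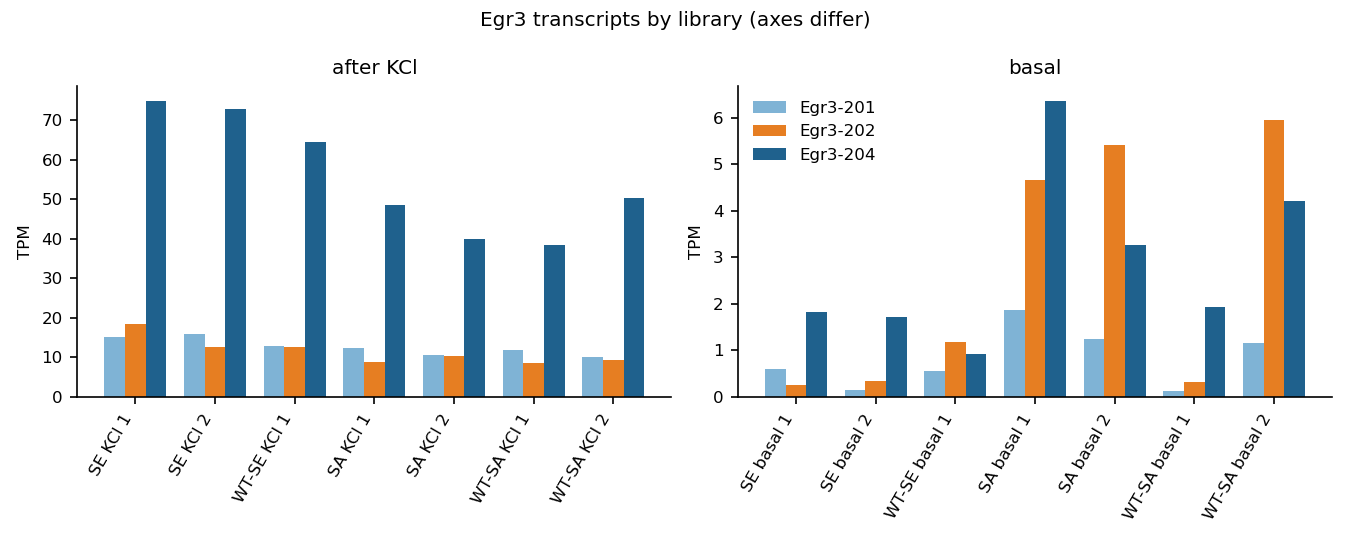
TPM of Egr3-201, Egr3-202 and Egr3-204 (bars) in each library, after KCl on the left and at basal on the right, on axes of different range that start at 0. Egr3-204 leads in all KCl libraries, and at basal Egr3-202 lies at 4.67 to 5.96 TPM in both SA libraries and WT-SA replicate 2 and at 0.25 to 1.17 TPM in the other 4.

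Egr4 (ENSMUSG00000071341.4, chromosome 6, 85511121 to 85513589, minus strand, 1 annotated transcript) had the lowest basal TPM of the 6 genes in WT-SA. It measured 1600 and 1134 CPM in SE KCl and 8.12 and 6.69 CPM in SE basal, with 1077 CPM in WT-SE KCl and 7.58 CPM in WT-SE basal. In the SA line it measured 201 and 176 CPM in SA KCl and 1.35 and 1.58 CPM in SA basal, and 150 and 176 CPM in WT-SA KCl and 0.72 and 1.04 CPM in WT-SA basal. Every KCl library was above every basal library, and every SE-line library above every SA-line library of the same treatment. Egr4 rose by 7.53 ± 0.26 in SE, 7.15 ± 0.36 in WT-SE, 7.003 ± 0.26 in SA and 7.53 ± 0.27 in WT-SA (edgeR, adjusted p between 3.1e-07 and 9.9e-06).

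Promoter windows are shown for Egr2, Egr4 and Nab1, because they hold letters of the sites that activity and Egr proteins are known to use. The RefSeq windows (GRCm38.p6) run from 250 bases before to 50 bases after an annotated start, and 4 of the 6 genes matched the table (Egr2, Egr4, Nab1 and Nab2). Capitals mark, on either strand, the CArG box that serum response factor binds, TGACG (the CRE half-site of CREB, CGTCA on the other strand), and the Egr sites GCGTGGGCG and GCGGGGGCG. No matches overlap in these windows.
Egr2 (chr10:67537619-67537918, plus strand, the window of 5 in the table that starts with Egr2-201): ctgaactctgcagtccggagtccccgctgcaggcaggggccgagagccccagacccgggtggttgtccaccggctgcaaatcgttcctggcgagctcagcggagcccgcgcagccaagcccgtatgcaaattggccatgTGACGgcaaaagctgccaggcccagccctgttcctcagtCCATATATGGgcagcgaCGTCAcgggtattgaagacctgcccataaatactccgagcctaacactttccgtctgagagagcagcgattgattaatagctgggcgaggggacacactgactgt
Egr4 (chr6:85513540-85513839, minus strand): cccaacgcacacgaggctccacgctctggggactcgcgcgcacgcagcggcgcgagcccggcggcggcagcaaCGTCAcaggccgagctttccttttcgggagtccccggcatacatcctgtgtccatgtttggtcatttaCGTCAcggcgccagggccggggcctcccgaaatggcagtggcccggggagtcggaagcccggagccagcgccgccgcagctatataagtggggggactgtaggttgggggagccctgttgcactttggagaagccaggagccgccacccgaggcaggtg
Nab1 (chr1:52500399-52500698, minus strand): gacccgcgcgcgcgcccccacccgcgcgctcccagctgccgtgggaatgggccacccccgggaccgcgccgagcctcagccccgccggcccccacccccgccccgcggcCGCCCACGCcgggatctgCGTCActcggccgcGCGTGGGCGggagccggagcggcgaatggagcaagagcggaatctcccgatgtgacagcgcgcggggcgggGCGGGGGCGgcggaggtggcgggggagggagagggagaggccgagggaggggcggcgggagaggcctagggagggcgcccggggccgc
Egr2 held 1 CArG box, 72 bases before the start, and 2 CRE half-sites, and Egr4 held 2 CRE half-sites. Nab1 held 2 GCGTGGGCG, 1 GCGGGGGCG and 1 CRE half-site. Its window follows a RefSeq start that differs from that of Nab1-201, the Nab1 transcript with the highest TPM. Nab1-201 starts at 52500679 on the minus strand (GENCODE M21), so the marked Nab1 letters lie within its span, not before it. The window of Nab2 held none of these letters. Of 32851 RefSeq windows of this length, 1.63% held a CArG box, 20.8% TGACG, 0.612% GCGTGGGCG and 2.91% GCGGGGGCG. A match is a run of letters, and binding was not measured. A link between these letters and the KCl response was not tested.

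Nab1 (ENSMUSG00000002881.14, chromosome 1, 52457294 to 52500679, minus strand) lay close to its basal level after KCl. It measured 51.1 and 51.9 CPM in SE KCl and 50.4 and 44.6 CPM in SE basal, 46.7 CPM in WT-SE KCl and 42.5 CPM in WT-SE basal, 21.3 and 21.3 CPM in SA KCl and 20.04 and 17.5 CPM in SA basal, and 30.1 and 34.5 CPM in WT-SA KCl and 26.9 and 21.5 CPM in WT-SA basal. KCl libraries lay above basal ones without overlap in SE, SA and WT-SA, by a small margin. How many of all genes show such an order with 2 libraries per group was not counted, so it is not read as a change. Its log2 values were 0.12 in SE (95% interval -0.19 to 0.42), 0.13 in WT-SE (-0.29 to 0.56), 0.18 in SA (-0.13 to 0.49) and 0.42 in WT-SA (0.11 to 0.72), and the lowest adjusted p was 0.54 (edgeR). These intervals leave room for a rise of up to 1.65-fold in WT-SA and of up to 1.34-fold in SE.

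Nab2 (ENSMUSG00000025402.12, chromosome 10, 127660918 to 127668568, minus strand) measured 12.2 and 10.7 CPM in SE KCl and 8.97 and 7.10 CPM in SE basal, and 12.2 CPM in WT-SE KCl and 8.95 CPM in WT-SE basal. SA had 20.5 and 25.2 CPM after KCl and 14.7 and 22.2 CPM at basal, and WT-SA had 28.1 and 20.9 CPM after KCl and 23.5 and 17.4 CPM at basal. Groups overlapped in SA and WT-SA. The log2 value was 0.51 in SE (95% interval -0.07 to 1.09, adjusted p = 0.705), 0.45 in WT-SE (-0.36 to 1.26), 0.31 in SA (-0.24 to 0.87) and 0.26 in WT-SA (-0.29 to 0.81), with an adjusted p of 1 in WT-SE, SA and WT-SA (edgeR). With the replicate block, the SE value was called (0.51, adjusted p = 0.0244). Same-numbered libraries gave a higher KCl level in 7 of 7 pairs, by 1.14-fold to 1.503-fold. Nab1 was also higher after KCl in each of these pairs. The share of all genes with such an order was not counted, and the labels do not show that same-numbered libraries are pairs. The order is therefore not read as a change in Nab2 either. Nab2 overlaps 3 genes on the other strand, Stat6 by 40 bases, the antisense model Gm16229 by 1646 bases and Nemp1 by 1668 bases, and counting by strand is not stated. Gm16229 stayed at or below 0.222 CPM, while Stat6 lay at 3.07 to 9.49 CPM and Nemp1 at 3.32 to 13.5 CPM. Like Nab2, Stat6 and Nemp1 were called lower in the SE line at basal, where 25.2% of all genes were. Their log2 values were -0.85 (adjusted p = 0.018) and -1.29 (adjusted p = 0.0036) by edgeR. What reads of these genes add to the Nab2 values was not tested.

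Per length, Egr1 led after KCl in all 7 libraries, at 1.24 to 2.22 times the TPM of Egr4, the next in order. In the SE line Egr1 had 949 to 1118 TPM and Egr4 597 to 899 TPM, followed by Egr2 at 121 to 143 TPM and Egr3 at 90.9 to 110 TPM. In the SA line Egr1 had 212 to 237 TPM and Egr4 99.1 to 118 TPM, followed by Egr3 at 59.5 to 70.7 TPM and Egr2 at 29.1 to 54.9 TPM. Egr2 and Egr3 thus stood in opposite order in the 2 lines, without overlap in either. At basal, Egr3 led in both SA libraries and in WT-SA replicate 2, and Egr1 in the other 4. The summed TPM of the Egr genes was 62.0 to 70.3 times that of the Nab genes after KCl in the SE line and 12.04 to 21.3 times in the SA line, and 0.627 to 0.711 times at basal in the SE line and 0.419 to 1.09 times in the SA line. This sum includes Egr4, described as lacking a site for Nab proteins, so it overstates the ratio of Nab-binding Egr genes to Nab genes. The TPM of Nab1 was 2.81 to 5.18 times that of Nab2 in the 6 SE-line libraries, and 0.655 to 1.16 times in the 8 SA-line libraries.

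The share of Nab2-202 in Nab2 TPM was higher after KCl in a test that pooled the genotypes. The Nab2 gene total was tested only within each genotype, over all genes, and did not pass without the replicate block. These tests are unlike, so they do not show that the share changed while the total did not. Nab2-201 has 7 exons, and Nab2-202 lacks the sixth of them, which is 192 bases or 64 codons long and leaves the frame intact. The exon accounts for the whole difference in coding length between them and is shown for that reason (chr10:127662731-127662922, GRCm38, minus strand, transcript orientation, from GENCODE M21).
Nab2 exon 6: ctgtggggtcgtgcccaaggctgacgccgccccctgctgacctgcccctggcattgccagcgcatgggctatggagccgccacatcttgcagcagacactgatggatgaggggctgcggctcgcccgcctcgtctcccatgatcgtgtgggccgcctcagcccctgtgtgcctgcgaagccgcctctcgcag
Nab2-202 took 30.4 and 40.7% of Nab2 TPM in SE KCl and 22.5 and 15.3% in SE basal, and 34.3% in WT-SE KCl and 19.7% in WT-SE basal. It took 34.4 and 33.6% in SA KCl and 8.17 and 25.0% in SA basal, and 35.5 and 22.8% in WT-SA KCl and 13.1 and 9.27% in WT-SA basal. The mean was 33.1% ± 5.46 after KCl and 16.2% ± 6.49 at basal (SD, n = 7 each), and the KCl library was higher in 7 of 7 same-numbered pairs. SE-line libraries did not overlap between treatments, and in the SA line the lowest KCl share, 22.8%, was below the highest basal share, 25.0%. The difference passed a two-sided exact permutation test (p = 0.00117, and 0.00583 after Benjamini-Hochberg adjustment over the 5 transcript shares compared). This test exchanged libraries freely across genotypes, lines and numbers, so it took them as independent, which the labels do not show. Its adjustment covers only these 5 shares, not all 14 member transcripts tested by edgeR. The shares of Egr1-202, Egr2-201, Egr3-202 and Nab1-205 did not pass, with adjusted p between 0.067 and 0.656 (exact permutation test). Nab2-202 rested on 84.7 to 233 estimated counts after KCl and 21.2 to 117 at basal, and kallisto sets it apart by reads over the exon and its junctions and by slightly different annotated ends. The short model Nab2-204 took 0 to 23.9% of Nab2 TPM on at most 6.72 estimated counts. In edgeR over all transcripts, Nab2-202 was not called in any genotype, at log2 1.496 ± 0.65 in SE (adjusted p = 0.67), 1.35 ± 0.91 in WT-SE, 1.25 ± 0.63 in SA and 1.70 ± 0.64 in WT-SA. Nab2-201 lay between -0.10 and 0.11.

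**Figure D4:**
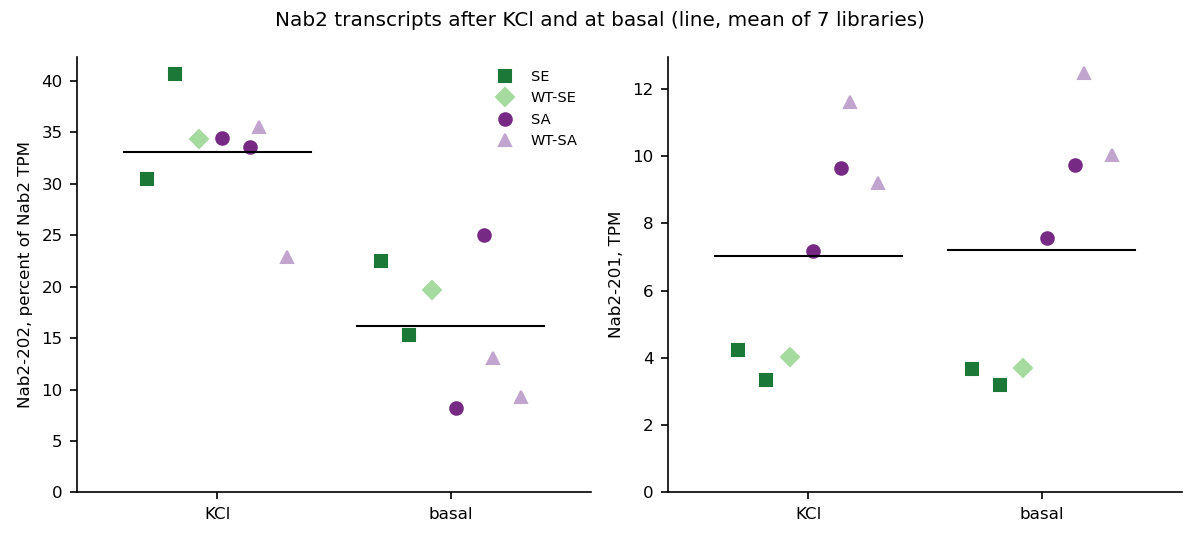
Nab2-202 as a percent of Nab2 TPM (left) and Nab2-201 in TPM (right), after KCl and at basal, with a point per library, symbols by genotype and a line at the mean of 7 libraries. The mean share of Nab2-202 is 33.1% after KCl and 16.2% at basal, and Nab2-201 lies at 3.20 to 4.23 TPM in the SE line and at 7.17 to 12.5 TPM in the SA line.

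The substitutions themselves were tested against wild-type littermates. The members were not called in SA against WT-SA or in SE against WT-SE, at either treatment, where 0% of all genes were called by edgeR in each of the 4 comparisons. At an unadjusted p under 0.05, 1279 genes passed in SA against WT-SA at basal and 2040 after KCl, and 187 and 240 in SE against WT-SE. DESeq2 called 0 and 119 genes in SA against WT-SA, and 0 and 1 in SE against WT-SE. Egr1 after KCl lay at log2 0.14 in SA against WT-SA (95% interval -0.17 to 0.46) and at 0.12 in SE against WT-SE (-0.27 to 0.51), so a difference over 1.43-fold higher was outside both intervals. In SA against WT-SA after KCl, Egr2 lay at 0.50 (-0.12 to 1.12), Egr3 at 0.15 (-0.88 to 1.18), Egr4 at 0.21 (-0.22 to 0.64) and Nab2 at -0.10 (-0.65 to 0.45). In SE against WT-SE after KCl, Egr2 lay at 0.13 (-0.62 to 0.89), Egr3 at 0.19 (-1.07 to 1.46), Egr4 at 0.34 (-0.19 to 0.88), Nab1 at 0.14 (-0.23 to 0.52) and Nab2 at -0.09 (-0.78 to 0.60).

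Nab1 came closest to a call. After KCl it measured 21.3 and 21.3 CPM in SA against 30.1 and 34.5 CPM in WT-SA. At basal it measured 20.04 and 17.5 CPM in SA against 26.9 and 21.5 CPM in WT-SA. The log2 value was -0.60 (95% interval -0.91 to -0.29, adjusted p = 0.299) after KCl and -0.36 (-0.67 to -0.05, adjusted p = 0.621) at basal by edgeR. DESeq2 called the KCl difference (adjusted p = 0.043), and the adjusted p lay between 0.043 and 0.989 over the alternatives tried. Without WT-SA replicate 1, whose progenitor markers were high, it was -0.69 (adjusted p = 0.679) after KCl and -0.20 at basal. Basal Egr4 was the other member with an unadjusted p under 0.05, at 0.74 in SA against WT-SA (0.09 to 1.39, adjusted p = 0.621).

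The KCl response of SA minus that of WT-SA, and of SE minus that of WT-SE, was not called for any member, and 0% of all genes were called. DESeq2 called 0 genes for SA and 1 for SE, and 122 and 159 genes had an unadjusted p under 0.05 by edgeR. For Egr1 the difference was 0.08 (95% interval -0.38 to 0.54) in SA and 0.37 (-0.19 to 0.92) in SE. For Egr3 in SA it was -0.69 (-2.18 to 0.80), and the value ran from -2.10 to 0.011 as single libraries were left out, the low end without WT-SA basal replicate 2 and the high end without WT-SA basal replicate 1.

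The 2 lines differed far more than the genotypes within them, and the line cannot be told apart from anything else that differed between the 2 sets of cultures, including the cell makeup given above. At basal, 5 of 6 members were called in the SE line against the SA line, where 45.8% of all genes were (20.7% higher and 25.2% lower in the SE line), 3 as higher and 2 as lower. Egr4 was higher in the SE line by 2.72 ± 0.19 (6.69 to 8.12 against 0.72 to 1.58 CPM), Nab1 by 1.08 ± 0.11 (42.5 to 50.4 against 17.5 to 26.9 CPM) and Egr1 by 0.52 ± 0.12 (17.7 to 23.5 against 14.3 to 15.95 CPM). Nab2 was lower at -1.19 ± 0.21 (7.10 to 8.97 against 14.7 to 23.5 CPM) and Egr3 at -1.64 ± 0.42 (5.92 to 6.39 against 5.45 to 29.0 CPM), where WT-SA replicate 1 lay below the SE line. Adjusted p ran from 9.7e-06 to 0.0103 for these 5 (edgeR). Egr2 was not called (0.50, adjusted p = 0.234). Leaving out both libraries of WT-SA replicate 1, or any single library, kept these 5 calls, and Egr3 lay at -1.99 without WT-SA replicate 1 and at -0.93 without WT-SA basal replicate 2.

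The KCl response itself was larger in the SE line for 1 member, Egr1, by 1.77 ± 0.16 on the log2 scale (95% interval 1.40 to 2.13, adjusted p = 0.0046, edgeR), where 0.107% of all genes were called (0.102% higher and 0.00564% lower). Its response was larger in both SE-line genotypes (6.90 and 6.54) than in both SA-line genotypes (5.00 and 4.91), and over the alternatives tried the difference lay between 1.71 and 1.86. Of the member transcripts, Egr1-202 was called for this difference (1.90 ± 0.15, adjusted p = 0.0115), where 0.0251% of all transcripts were. Egr4 differed by 0.07 (-0.54 to 0.68), beside its basal difference of 2.72. Egr3 differed by 2.37 (1.14 to 3.601, adjusted p = 0.442), and passed under 6 of 17 alternatives, among them the one without WT-SA replicate 1 (2.64, adjusted p = 3.3e-04). Egr2 differed by 1.17 (0.29 to 2.05) with an adjusted p of 1, and was called with the replicate block (1.18, adjusted p = 0.0129). Nab1 differed by -0.17 (-0.51 to 0.17) and Nab2 by 0.19 (-0.44 to 0.83). The part of cell makeup in these differences was not tested.

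The pathway around the family was read from 4 lists. Of all genes tested, 1.22% rose with KCl in SE, 0.451% in WT-SE, 0.699% in SA and 0.649% in WT-SA. Of 18 upstream factors (ERK and RSK kinases, serum response factor and its partners, CREB and its coactivators), 1 rose with KCl in SE and 0 in WT-SE, SA and WT-SA. That gene was Srf, serum response factor itself, with a mean of 175 CPM in SE KCl and 76.9 CPM in SE basal (log2 1.19 ± 0.14, adjusted p = 0.0015). It lay at 1.02 ± 0.19 in WT-SE (adjusted p = 0.0674), 0.53 ± 0.13 in SA and 0.41 ± 0.13 in WT-SA (edgeR). The list's median log2 value was 0.04 in SE, -0.04 in WT-SE, -0.03 in SA and 0.02 in WT-SA. None of the 14 NuRD subunits, through which Nab2 in part represses, was called in any genotype. In a list this short, a count of 0 is close to the shares of all genes. The subunits' log2 values lay between -0.25 and 0.43, with medians of 0.08 in SE, 0.07 in WT-SE, 0.004 in SA and -0.01 in WT-SA.

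Of 29 tested genes described as Egr targets in other work, 7 rose in SE, 7 in WT-SE, 6 in SA and 5 in WT-SA, and none fell. Among all genes, 1.22%, 0.451%, 0.699% and 0.649% rose in that order. Arc, which removes AMPA receptors from synapses, had mean levels of 1083 CPM in SE KCl and 6.50 CPM in SE basal, and of 88.4 CPM in SA KCl and 1.77 CPM in SA basal. Its log2 rise was 7.38 ± 0.23 in SE, 7.15 ± 0.33 in WT-SE, 5.64 ± 0.23 in SA and 4.96 ± 0.22 in WT-SA. Nr4a3, an orphan nuclear receptor, rose by 4.47 in SE, 4.20 in WT-SE, 3.53 in SA and 3.36 in WT-SA. Bdnf, a neurotrophin, rose by 3.10 in SE, 3.15 in WT-SE, 3.65 in SA and 3.31 in WT-SA. Ptgs2 (COX-2, which makes prostaglandins) rose by 5.37 in SE, 4.50 in WT-SE, 4.47 in SA and 3.65 in WT-SA. Per1, a circadian clock gene, was also called in all 4, Rgs2, a G protein signalling regulator, in SE, WT-SE and SA, and Dusp4, a MAP kinase phosphatase, in SE and WT-SE. The median of the list stayed near 0 (0.11 in SE, 0.14 in WT-SE, 0.05 in SA and 0.01 in WT-SA). For the response difference between the lines, Arc (1.97) and Dusp4 (1.41) were called. Several of these genes are themselves induced by activity without Egr proteins, and binding was not measured.

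Of 16 genes for other zinc finger factors that bind similar GC-rich sites, 2 rose in SE, 2 in WT-SE, 4 in SA and 3 in WT-SA. Among all genes, 1.22%, 0.451%, 0.699% and 0.649% rose in that order. Klf4 rose by 5.33 ± 0.49 in SE, 5.06 ± 0.68 in WT-SE, 5.13 ± 0.50 in SA and 3.69 ± 0.45 in WT-SA, and Klf16 by 1.42 ± 0.13 in SE, 1.11 ± 0.18 in WT-SE, 0.92 ± 0.13 in SA and 0.89 ± 0.13 in WT-SA. Klf5 was called in SA (2.21) and WT-SA (2.04), and Klf6 in SA (0.55). The list's median was -0.06 in SE, -0.05 in WT-SE, -0.03 in SA and -0.03 in WT-SA. Between the lines at basal, where 45.8% of all genes were called (20.7% higher and 25.2% lower in the SE line), 4 of 18 upstream factors were higher and 3 lower, 1 of 14 NuRD subunits was higher and 5 lower, 10 of 29 described targets were higher and 10 lower, and 2 of 16 zinc finger genes were higher and 3 lower. The lists were chosen with results of these data known, so their counts are descriptions.

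**Figure D5:**
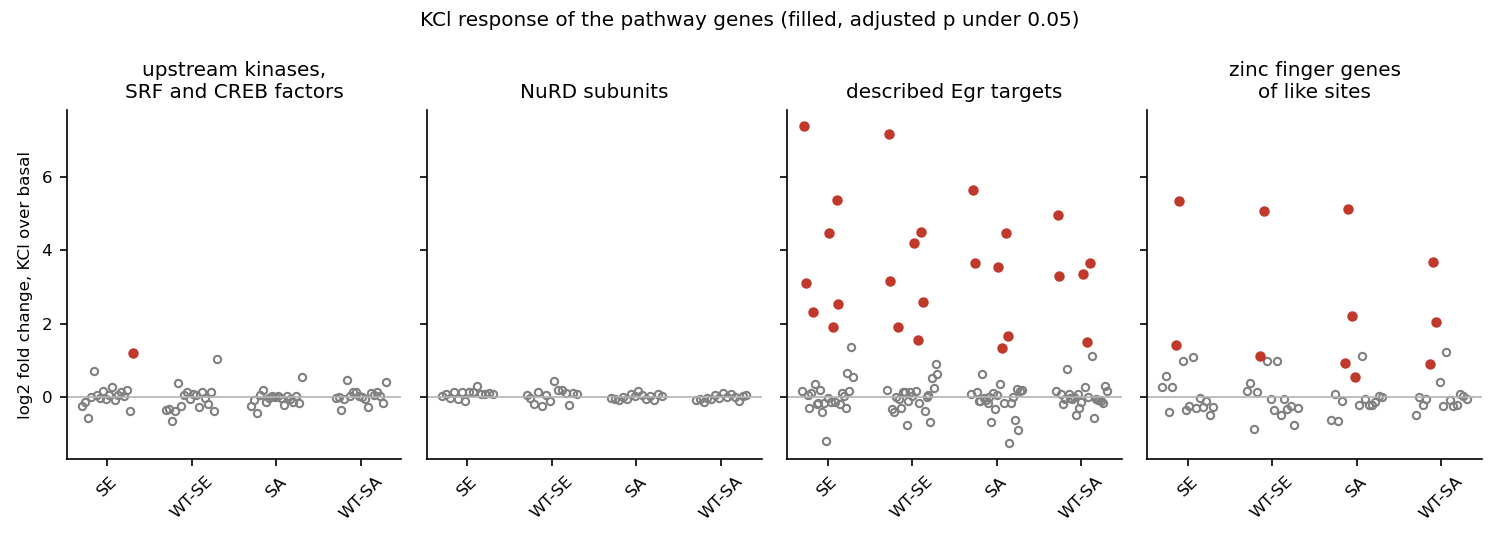
log2 fold change of KCl over basal for each gene of the 4 lists in each genotype, with filled points for genes at an adjusted p under 0.05 (edgeR). No NuRD subunit is filled, Srf in SE is the only upstream factor filled, and Arc in SE is the highest point at 7.38.

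For each member, the 3 genes outside the family whose levels ran most like it were taken from 13143 genes. These had the smallest root mean square distance of centred log2 CPM over the 14 libraries. Members and unnamed gene models were left out. Junb and Fos, subunits of AP-1, were nearest to Egr1 (0.38 and 0.56) and Egr2 (0.37 and 0.48), with Gadd45b, a regulator of DNA demethylation (0.65), as the next for Egr1 and Nr4a1, an orphan nuclear receptor (0.53), as the next for Egr2. Egr3 lay nearest to Nr4a3 (0.75), Tiparp (0.76), an ADP-ribosyltransferase, and Maff (0.84), a small MAF factor. Egr4 lay nearest to Npas4, a neuron-specific activity-induced factor (0.64), Arc (0.83) and Nr4a1 (0.94). Nab1 lay nearest to Rybp (0.17), a Polycomb subunit, and then Glcci1 (0.19) and Ppp2r1b (0.19), and Nab2 to Naf1 (0.14), Ctdsp2 (0.14) and Unc119b (0.15). Between members the distance ran from 0.48 for Egr1 and Egr2 to 3.95 for Egr4 and Nab2, and Nab1 and Nab2 were 1.09 apart. Of the genes named here, only Junb was nearer to Egr1 or Egr2 than these were to each other.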

How the data were processed

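Estimated counts and TPM of 14 mouse RNA-seq libraries were deposited by the authors per transcript and per gene symbol. Transcripts were quantified with kallisto 0.43.1 on GRCm38 (mm10), per the submitters' processing notes, and the deposited estimated counts need not be whole; TPM values deposited by the authors are corrected for effective length. Reads that fit several transcripts are divided by kallisto's model, which affects transcript shares most.

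Estimated counts were rounded and fitted with edgeR 4.0.16 in R 4.3.3 (filterByExpr, TMM, 8 group means, 14 libraries, 6 residual degrees of freedom, quasi-likelihood F test). The single WT-SE libraries were assumed to vary like the other groups. p-values were adjusted by Benjamini-Hochberg over 17732 genes or 47808 transcripts, and genes were called under 0.05. Standard errors are the absolute log2 fold change over the square root of F, and 95% intervals use the fit's degrees of freedom. A line is the equal-weight mean of its 2 genotypes. Annotation is GENCODE M21, and promoter windows are from RefSeq. The fits were tested on simulated data.

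Named genes were the members, the 3 genes outside the family nearest to each, and called genes of the lists. Of each list and KCl response, these were up to 4 called genes with the lowest p. Per1 and Rgs2 were added after their values were seen. Members and lists were chosen with earlier results of these data known. Alternatives were RLE scaling, no filter on low counts, DESeq2 1.42.0, a replicate block, a fit of each line alone, each library left out in turn, TPM in place of CPM and, chosen after seeing the data, both libraries of WT-SA replicate 1 left out. Replicate libraries of a group differed by more than counting noise, so none was treated as a repeat deposit of another, which does not show that they are biological replicates.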

Additional observations from a re-analysis of the deposited data

Results flagged for a closer look

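Egr1 responded more strongly to KCl in the SE line than in the SA line, with a difference of 1.77 on the log2 scale (edgeR interaction contrast, adjusted p = 0.0046). Its main transcript Egr1-202 showed the same, at 1.90 (adjusted p = 0.0115, where 0.0251% of all transcripts were called). The response was larger in 3 of 3 same-numbered SE-line pairs (92.99-fold to 125-fold) than in 4 of 4 SA-line pairs (28.2-fold to 35.6-fold). The line cannot be told apart from the cell makeup or from any other difference between the 2 sets of cultures.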

How the results depend on the processing

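Of the members' calls after KCl, those of Egr1, Egr2 and Egr4 held in all 4 genotypes under every alternative run, as did the 5 basal calls between lines and the Egr1 response difference between lines. Egr3 after KCl was called in SE throughout. In SA (adjusted p = 0.0551) it passed under 6 of 20 alternatives (range 2.3e-06 to 0.342), in WT-SA it was lost under 6 of 20 (highest adjusted p 0.174, in the fit of the line alone) and in WT-SE under 4 of 18 (highest 0.0631). Its response difference between lines passed under 6 of 17 alternatives (1.67 to 2.72), and that of Egr2 under 1, the replicate block. Same-numbered libraries deviated together in SA (correlation 0.422) and WT-SA (0.67) but not in SE (-0.051). The main fit did not take the numbers as pairs, which leaves this shared spread in its errors for SA and WT-SA. The replicate block took them as pairs. With the replicate block, calls over all genes after KCl were 613 in SA, 1024 in SE, 471 in WT-SA and 442 in WT-SE, against 150, 295, 133 and 82, list genes called were 17, 20, 15 and 15, against 10, 10, 8 and 9, the response difference SE minus WT-SE had 2 genes, and the line response difference had 133 genes, 9 list genes, 3 members and 0 member transcripts, against 19, 2, 1 and 1. The block, a term for each genotype and number, leaves the comparisons of genotypes and of lines at one treatment without an estimate, so it was not run there. With each line fitted alone, KCl calls were 67 in SA, 961 in SE, 46 in WT-SA and 416 in WT-SE, list genes 6, 19, 4 and 15, member transcripts in SA 3 against 5, and SE against WT-SE had 10 genes at basal, 31 after KCl and 4 for the response. DESeq2 called 252 genes after KCl in SA, 213 in WT-SA and 160 in WT-SE, 119 in SA against WT-SA after KCl (with 1 member, Nab1), 1 in SE against WT-SE after KCl, 1 for its response difference, and for the line response difference 63 genes, 5 list genes, 2 members and 3 member transcripts. Without the filter, SE against WT-SE after KCl had 3 genes and the line response difference 49 genes and 2 members. Without WT-SA replicate 1, KCl calls in SA were 239, the line response difference had 30 genes, 2 members and 2 member transcripts, and signs turned for Nab2 in SA against WT-SA (0.080 at basal, 0.13 after KCl), Egr3 there after KCl (-0.025) and the Egr1 response of SA minus WT-SA (-0.0073). By TPM the Egr2 rise in SA was 5.64 in place of 6.28. Leaving out single libraries gave 68 to 167 genes and 6 to 11 list genes after KCl in SA, 112 to 301 genes in SE, 76 to 136 in WT-SA, 0 to 1 in SA against WT-SA at basal and after KCl, in SE against WT-SE after KCl and in its response difference, and 12 to 32 genes, 1 to 3 list genes, 1 to 2 members and 1 to 2 member transcripts for the line response difference. Member transcripts called were 3 to 5 after KCl in SA and 4 to 7 between lines at basal (17.4% of all transcripts were called there). Uncalled values changed sign in these ranges: in SA against WT-SA at basal, Nab2 -0.48 to 0.12 and Egr2 -0.75 to 0.074, and after KCl, Nab2 -0.29 to 0.13 and Egr3 -0.026 to 0.34; in SE against WT-SE at basal, Egr4 -0.16 to 0.10 and Nab2 -0.32 to 0.0025, and after KCl, Nab2 -0.19 to 0.0051; in the response of SA minus WT-SA, Egr1 -0.040 to 0.19, Nab2 -0.21 to 0.39 and Egr3 -2.10 to 0.011; in that of SE minus WT-SE, Nab2 -0.094 to 0.23 and Nab1 -0.10 to 0.057; in the line response difference, Egr4 -0.073 to 0.20; and for Nab2-201 after KCl, -0.20 to 0.24 in SA, -0.073 to 0.28 in SE and -0.30 to 0.14 in WT-SA. The cause was not tested. With 1 library per treatment in WT-SE, fits without one gave no value for WT-SE contrasts. Basal Egr2 near 1 CPM in all libraries, and basal Egr4 near 1 CPM in the SA line, limit the precision of their folds.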
